A study of Mus musculus with 6 samples.

Results

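The keratin family was examined in lower molar tooth germs and neighbouring oral tissue of CD-1 mouse embryos. Members were taken as every gene whose symbol is Krt followed by a digit. There were 49 such genes among 19057 genes with a named probe on the Illumina bead array. They were measured by 66 probes, and a gene with several was represented by its brightest one over the 6 arrays. Of these genes, 25 encode type I (acidic) keratins and 23 encode type II (basic) keratins, and Krt222, a keratin-like gene, was placed in neither.

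Both tissues were taken at embryonic day 13.5 from the outbred CD-1 stock, and the labels name no transgene or treatment. Each array holds material pooled over embryos, and there were 3 arrays per tissue. The tooth germ and oral tissue arrays with the same replicate number came from 1 litter, so the 6 arrays form 3 pairs. The oral tissue is described as mandibular tissue without tooth or bone. Each library is a whole dissected tissue, so a signal averages epithelium, mesenchyme and any other cells in it. A difference in the share of epithelial cells and a difference in keratin RNA per cell cannot be told apart in such samples.

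The labels contradict each other on which 3 arrays are tooth germ. Titles and descriptions give one assignment, while the fields for source and tissue reverse it. The groups are named by title here, and the sign of every difference would turn under the other fields. Msx1, a homeobox gene of dental mesenchyme, averaged 12.56 in the arrays titled tooth germ and 11.09 in those titled oral tissue. It is 1 of 9 measured mesenchyme genes, of which 4 were higher and 5 lower in titled tooth germ, with a median difference of -0.24. Which assignment is right was not tested.

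Keratins are the intermediate filament proteins of epithelial cells. A filament is built from pairs of 1 type I and 1 type II chain, so the genes are made in partner sets. Krt8 with Krt18 is the set of simple epithelium, Krt5 with Krt14 that of the basal layer of stratified epithelium, and Krt1 with Krt10 that of the layers above it. Krt6, Krt16 and Krt17 belong to epithelial appendages and to stressed epithelium. At the bud stage the molar epithelium is a thickened ingrowth of oral epithelium, covered by a flat superficial layer called the periderm.

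Apart from Krt18, mouse type I keratin genes lie together on chromosome 11, and the type II genes on chromosome 15 with Krt18 at the end of their row. In the RefSeq gene order Krt14, Krt16 and Krt17 were direct neighbours, and all 3 rose in titled tooth germ. The Krt16 call was lost in 10 of 18 alternative fits, and Krt42, the next gene after Krt17, was not called. Krt15, which fell, lies in the same row and is separated from Krt14 by Krt19 and Krt9, neither of which was called. On chromosome 15, Krt6b, Krt6a and Krt5 followed each other and all rose, as did the adjacent Krt8 and Krt18. The Krt6a call was lost in 10 of 17 alternative fits.

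Promoter sequence was available for 34 of the 49 genes, 7 of them among the 13 that differed between tissues. The sequences below are the 250 bases before the annotated start of 5 of these genes, from RefSeq (build GRCm38.p6), 5′ to 3′ on the strand of the gene. They are shown because Krt14 with Krt5, and Krt8 with Krt18, are partner genes that rose together, and because Krt10 fell. Capitals mark matches to TATAAA, the TATA box, to GCCNNNGGC, the palindromic core bound by AP-2 factors, and to GGGCGG, the GC box of Sp factors. All were searched on both strands. Among the called genes with a window, matches to different motifs overlapped in Krt7, which is not shown.
Krt14 (chr11:100206031-100206280, minus strand): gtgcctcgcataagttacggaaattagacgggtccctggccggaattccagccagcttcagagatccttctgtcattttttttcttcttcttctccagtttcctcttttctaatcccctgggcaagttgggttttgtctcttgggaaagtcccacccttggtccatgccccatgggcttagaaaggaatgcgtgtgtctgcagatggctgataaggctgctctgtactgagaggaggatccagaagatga
Krt5 (chr15:101712906-101713155, minus strand): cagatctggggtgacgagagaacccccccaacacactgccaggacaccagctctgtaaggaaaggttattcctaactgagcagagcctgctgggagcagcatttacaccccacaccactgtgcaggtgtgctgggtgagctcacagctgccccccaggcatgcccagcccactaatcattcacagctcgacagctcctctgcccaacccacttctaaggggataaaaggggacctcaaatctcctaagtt
Krt8 (chr15:102004343-102004592, minus strand): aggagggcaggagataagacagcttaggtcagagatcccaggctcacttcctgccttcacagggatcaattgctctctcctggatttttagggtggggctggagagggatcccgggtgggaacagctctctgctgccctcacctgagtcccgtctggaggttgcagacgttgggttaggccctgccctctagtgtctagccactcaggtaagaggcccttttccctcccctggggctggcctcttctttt
Krt18 (chr15:102027966-102028215, plus strand): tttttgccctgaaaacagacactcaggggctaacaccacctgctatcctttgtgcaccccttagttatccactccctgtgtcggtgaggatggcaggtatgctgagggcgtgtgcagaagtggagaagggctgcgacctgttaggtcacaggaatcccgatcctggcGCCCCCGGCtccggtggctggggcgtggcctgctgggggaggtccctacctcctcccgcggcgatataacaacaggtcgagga
Krt10 (chr11:99389365-99389614, minus strand): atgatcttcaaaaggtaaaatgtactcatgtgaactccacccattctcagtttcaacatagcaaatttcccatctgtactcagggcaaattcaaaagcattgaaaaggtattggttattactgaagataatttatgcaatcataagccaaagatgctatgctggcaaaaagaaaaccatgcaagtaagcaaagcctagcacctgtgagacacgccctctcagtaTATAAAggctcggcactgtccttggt

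The printed windows of Krt14, Krt5 and Krt8 held none of the 3 motifs. That of Krt18 held 1 AP-2 core, beginning 83 bases upstream, and that of Krt10 held 1 TATA box, beginning 26 bases upstream. Over the 35 keratin windows (Krt13 has 2), 45.7% held TATAAA, against 12.4% of all 32851 promoter windows of the same length. GGGCGG was found in 5.71% of keratin windows and 32.7% of all windows, and GCCNNNGGC in 14.3% and 13.7%. Of the 7 genes that differed between tissues and had a window, 2 held TATAAA, as did 14 of the 27 others. These are letter matches, and binding was not measured.

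Of 49 keratin genes, 10 rose and 3 fell in titled tooth germ, and 36 were not called. The threshold for a call was an adjusted p of 0.05 (limma, Benjamini-Hochberg over all 19057 genes), and 5.81% of all genes met this, 2.39% higher and 3.42% lower. The 13 called genes were 26.5% of the family. All 13 had the same sign in all 3 litters, which follows from their groups not overlapping. The median difference over the family was 0.019 on the log2 scale, and over all genes it was 0.0026. A fit that kept the litter as a block called 9 keratins higher and 3 lower, since Krt6a missed the threshold (adjusted p = 0.0503, limma). It called 8.88% of all genes, 3.86% higher and 5.02% lower.

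The count of keratins that rose was 6 without oral tissue library 1, tooth germ library 2 or tooth germ library 3, and 5 without both libraries of litter 1 or of litter 2. The count that fell was 0 without tooth germ library 1 or without litter 1. It was 1 without oral tissue library 1, tooth germ library 2, tooth germ library 3, litter 2 or litter 3. Calls over all genes dropped too. Genes called higher, 456 in the main fit, numbered 284 without oral tissue library 1, 282 without tooth germ library 2 and 368 without tooth germ library 3. They numbered 195 without litter 1 and 268 without litter 2. Genes called lower, 651 in the main fit, numbered 469 without tooth germ library 1 and 354 without litter 1.

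Signals are given on the deposited log-like scale, called log2 here although it may be a variance-stabilised one, so differences are not turned into folds. The median of all values was 7.01 and the upper quartile 7.84. A mean above the median was reached by 26 keratins, of which 12 were called, and 8 had a mean above the upper quartile, of which 7 were called. These 8 were Krt14, Krt17, Krt15, Krt10, Krt5, Krt8, Krt18 and Krt19. The remaining 23 genes averaged at or below the median of all values, and only Krt6a among them was called. Signals of different genes come from different probes, so their order is not one of RNA amounts.

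**Figure D1:**
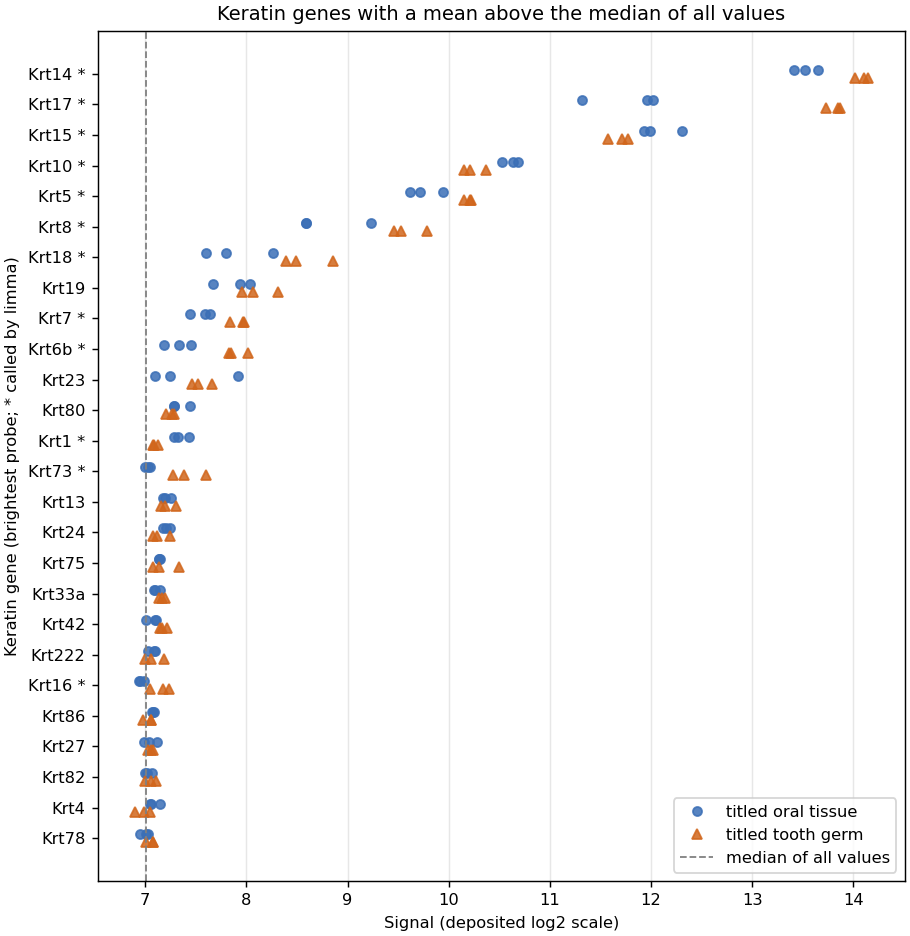
Signal of the 26 keratin genes whose mean over 6 arrays lay above the median of all values (dashed line), on the deposited log2 scale, 1 point per array. Circles are the 3 arrays titled oral tissue, triangles the 3 titled tooth germ, and an asterisk marks the called genes. The triangles of Krt17 stand clear of its circles, and most genes from Krt80 down sit close to the dashed line.

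The basal layer keratins did not move as 1 block. Krt14, the main type I keratin of basal cells, read 13.53, 13.65 and 13.41 in titled oral tissue of litters 1 to 3, against 14.01, 14.14 and 14.10 in titled tooth germ. All 3 tooth germ arrays were above all oral arrays. The log2 difference was 0.56 (SE 0.069, adjusted p = 4.5e-04, limma).

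Krt5, the type II partner of Krt14, read 9.72, 9.94 and 9.62 against 10.15, 10.22 and 10.21. The groups did not overlap, and the tooth germ arrays lay closer together (SD 0.034) than the oral arrays (SD 0.16, n = 3 each). The log2 difference of Krt5 was 0.43 (SE 0.092, adjusted p = 0.0159, limma). Its call was lost when both libraries of litter 1 (adjusted p = 0.152) or of litter 3 (adjusted p = 0.132) were left out, or any 1 of oral tissue library 1 (0.0650), oral tissue library 3 (0.0771) and tooth germ library 2 (0.0551).

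Krt15, a type I keratin of basal cells that is found in quiescent and stem-like basal compartments, went the other way. It read 11.99, 12.30 and 11.93 in oral tissue against 11.77, 11.58 and 11.72. The groups did not overlap, but litter 2 differed by -0.73 and litters 1 and 3 by -0.22 each. Krt15 fell by 0.39 on the log2 scale (95% interval -0.61 to -0.17, adjusted p = 0.0464, limma). This call lies at the threshold and was lost in 13 of 18 alternatives, among them without litter 2 (-0.22, adjusted p = 0.295) and after centring each array on its median (-0.38, adjusted p = 0.0513). It was also lost without any 1 library other than oral tissue library 3, with an adjusted p of up to 0.153.

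Krt17 had the largest difference of the family. It is a type I keratin of developing epithelial appendages and of the periderm. It read 11.32, 11.96 and 12.02 in oral tissue against 13.73, 13.87 and 13.85. The tooth germ arrays were nearly equal, and the spread lay in the oral arrays, where library 1 was the lowest. The differences in litters 1 to 3 were 2.41, 1.91 and 1.82, and the mean of 2.05 had a 95% interval of 1.72 to 2.37. Its call held in all 18 alternatives, with an adjusted p between 2.1e-07 and 0.0028 (limma).

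Krt6b and Krt6a, type II keratins of appendages and the partners of Krt16 and Krt17, were much dimmer. Krt6b read 7.46, 7.34 and 7.19 against 7.85, 7.83 and 8.01, a rise of 0.57 (SE 0.080, adjusted p = 0.0011, limma). All tooth germ arrays were above all oral arrays, and this call too held in all 18 alternatives. The other Krt6b probe had a mean of 6.89, below the median of all values, and differed by 0.043. Krt6a read 6.92, 6.96 and 6.89 against 7.03, 7.05 and 7.06, close to the median of all values. Its rise of 0.12 (adjusted p = 0.0475, limma) was lost in 10 of 17 alternatives, among them without any 1 library other than oral tissue library 2 and without any 1 litter, with an adjusted p of up to 0.303. The Krt6 genes are close paralogs, and cross-hybridisation between their probes was not tested.

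Krt16, the type I neighbour of Krt17, rose by 0.19 (SE 0.049, adjusted p = 0.0379, limma). It read 6.99, 6.95 and 6.94 against 7.04, 7.24 and 7.18, and litter 1 contributed 0.052 to this rise and litters 2 and 3 0.29 and 0.24. The groups did not overlap, but the call was lost in 10 of 18 alternatives, among them without litter 2 (adjusted p = 0.248), without litter 3 (0.264) and without any 1 library other than tooth germ library 1 (up to 0.138). Krt42, a type I gene next to Krt17, differed by 0.11 (adjusted p = 0.205), and Krt75, a type II hair follicle keratin, by 0.043 (adjusted p = 0.796). The appendage and stress group therefore had 4 of 6 members called, all higher, and 3 of 6 in the blocked fit. Over all genes 2.39% were called higher, and 3.86% in the blocked fit.

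**Figure D2:**
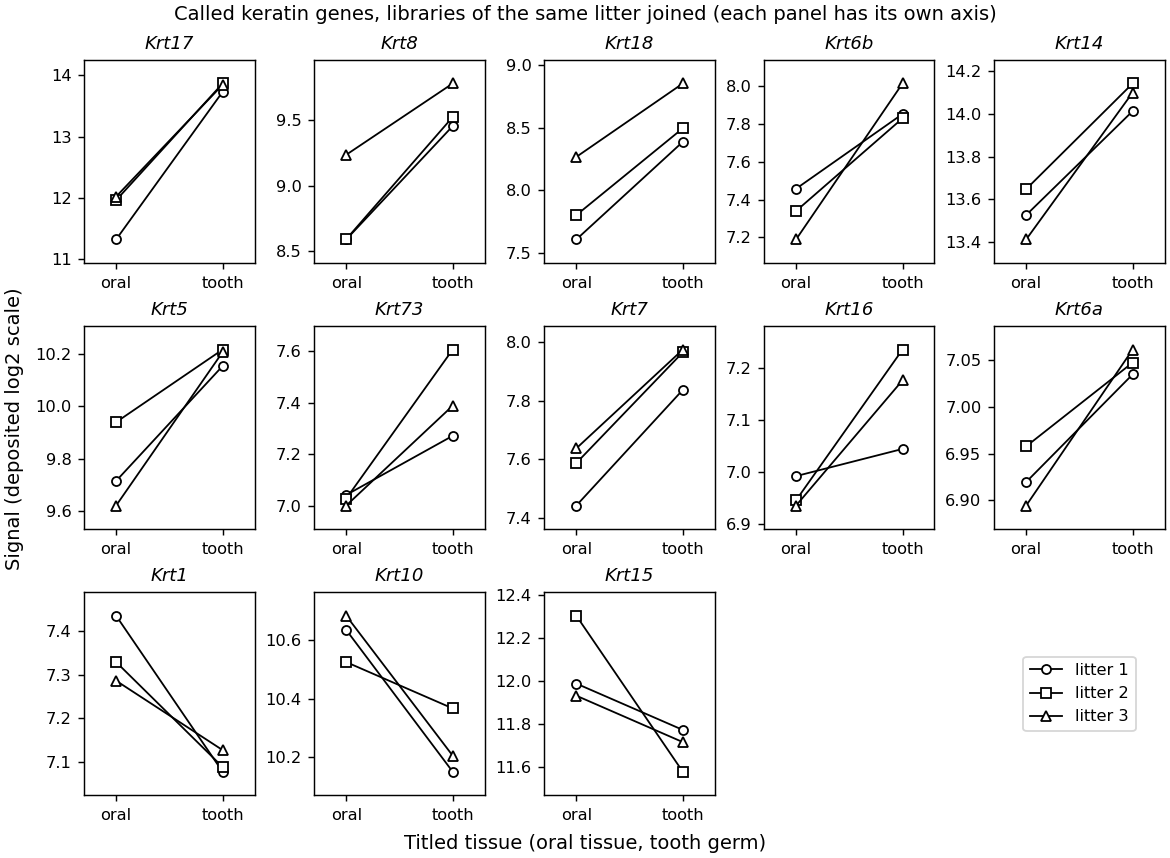
Signals of the 13 called keratin genes on the deposited log2 scale, with the oral tissue and tooth germ arrays of 1 litter joined by a line. Each panel has its own axis, markers stand for litters 1 to 3, and all 3 lines rise in the first 10 panels and fall for Krt1, Krt10 and Krt15. Litter 3 has the highest Krt8 and Krt18 signals in both tissues.

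Of 6 simple epithelium keratins 3 rose and 3 were not called, and 2.39% of all genes rose. Krt8 read 8.59, 8.59 and 9.24 against 9.46, 9.53 and 9.78, and Krt18, its type I partner, 7.61, 7.80 and 8.27 against 8.39, 8.496 and 8.85. Litter 3 was highest in both tissues for both genes, so the litters shifted together while the tissues stayed apart. Krt8 rose by 0.79 (SE 0.16, adjusted p = 0.0114) and Krt18 by 0.69 (SE 0.16, adjusted p = 0.0240, limma).

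With litter as a block the adjusted p of Krt8 was 9.4e-05 and that of Krt18 4.5e-05 (limma). Over the 18 alternatives, which include that block, the Krt18 call was lost in 9 and the Krt8 call in 5. The highest adjusted p was 0.144 for Krt18 and 0.0863 for Krt8 (limma). All these losses came from fits without litter, which leave the litter shift in the error. Both calls ended without tooth germ library 3 (adjusted p = 0.101 for Krt18 and 0.0618 for Krt8), without litter 1 (0.0860 and 0.0863) and without litter 2 (0.116 and 0.0773). That of Krt18 also ended without oral tissue library 1 (0.0842), oral tissue library 2 (0.0723) or tooth germ library 2 (0.0506). The second Krt8 probe had a mean of 6.88, below the median of all values, and differed by 0.0042.

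Krt7, a type II keratin of ducts and other simple epithelia, read 7.44, 7.59 and 7.64 against 7.84, 7.97 and 7.97. It rose by 0.37 (SE 0.073, adjusted p = 0.0104, limma), with nearly the same step in each litter, at 0.40, 0.38 and 0.34. Without both libraries of litter 1 or of litter 2 the call was lost (adjusted p = 0.0585 and 0.0789).

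Krt19, a small type I keratin of simple and some basal epithelium, read 7.67, 8.04 and 7.94 against 8.06, 7.96 and 8.31. The groups overlapped, and the log2 difference of 0.23 had a 95% interval of -0.010 to 0.47 (adjusted p = 0.316). Krt23 read 7.10, 7.25 and 7.92 against 7.46, 7.66 and 7.52, and the high value of oral tissue library 3 set the overlap. Its difference of 0.13 was not called (adjusted p = 0.774, limma). Without that library it was 0.37 (adjusted p = 0.0148), and without litter 3 it was 0.39 (adjusted p = 0.0420). Krt20, a keratin of intestinal epithelium, differed by -0.012 at a mean signal of 6.92.

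The suprabasal keratins included 2 of the 3 genes that fell, and none of the 13 measured rose (limma, also 0 at an unadjusted p under 0.05). Over all genes 3.42% were called lower and 2.39% higher. Krt10, the type I keratin of suprabasal cells, read 10.63, 10.52 and 10.68 in oral tissue against 10.15, 10.37 and 10.21. The groups did not overlap, and litters 1 and 3 differed by -0.48 each against -0.16 in litter 2. Krt10 fell by 0.37 (SE 0.086, adjusted p = 0.0261, limma). Leaving out both libraries of litter 1 gave an adjusted p of 0.284, and leaving out those of litter 3 gave 0.189. The call also ended without oral tissue library 1 (0.0886) or 3 (0.110), or tooth germ library 1 (0.116) or 3 (0.0686).

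Krt1, the type II partner of Krt10, read 7.43, 7.33 and 7.29 against 7.08, 7.09 and 7.13. It fell by 0.25 (SE 0.050, adjusted p = 0.0107, limma), with all oral arrays above all tooth germ arrays. The call was lost without both libraries of litter 1 (-0.20, adjusted p = 0.125) or litter 2 (-0.26, adjusted p = 0.0778), and without tooth germ library 1 (adjusted p = 0.0570) or 2 (adjusted p = 0.0522).

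Krt4 and Krt13 are the suprabasal partners of moist oral lining, and both stood near the median of all values. Krt13 differed by 0.008 (adjusted p = 0.961), its sign turning with the mean of all probes, and Krt4 by -0.11 (adjusted p = 0.225). Krt80, a type II keratin of differentiating epithelia, differed by -0.084 (adjusted p = 0.510), and Krt24 by -0.065 (adjusted p = 0.590). No difference was detectable in these genes with 3 arrays per tissue.

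Among 18 measured keratins of the hair shaft and inner root sheath, 1 was called, a share of 5.56% against 5.81% of all genes. Krt73, a type II keratin of the inner root sheath, read 7.04, 7.03 and 7.002 against 7.27, 7.60 and 7.39. The oral arrays sat at the median of all values and all tooth germ arrays above it. Krt73 rose by 0.40 (SE 0.072, adjusted p = 0.0057, limma), and its second probe rose by 0.19 (adjusted p = 0.0109 over all named probes). Its call was lost without litter 3 (adjusted p = 0.0654). The other 17 hair keratins differed by between -0.056 and 0.060, and none was called.

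The keratins not called spanned differences from -0.11 (Krt4) to 0.23 (Krt19). Among those nearest the median of all values, Krt33a, Krt222, Krt86, Krt27, Krt82 and Krt78 lay just above it, and Krt79, Krt26, Krt76 and Krt90 just below. These 10 genes differed by between -0.058 and 0.060.

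**Figure D3:**
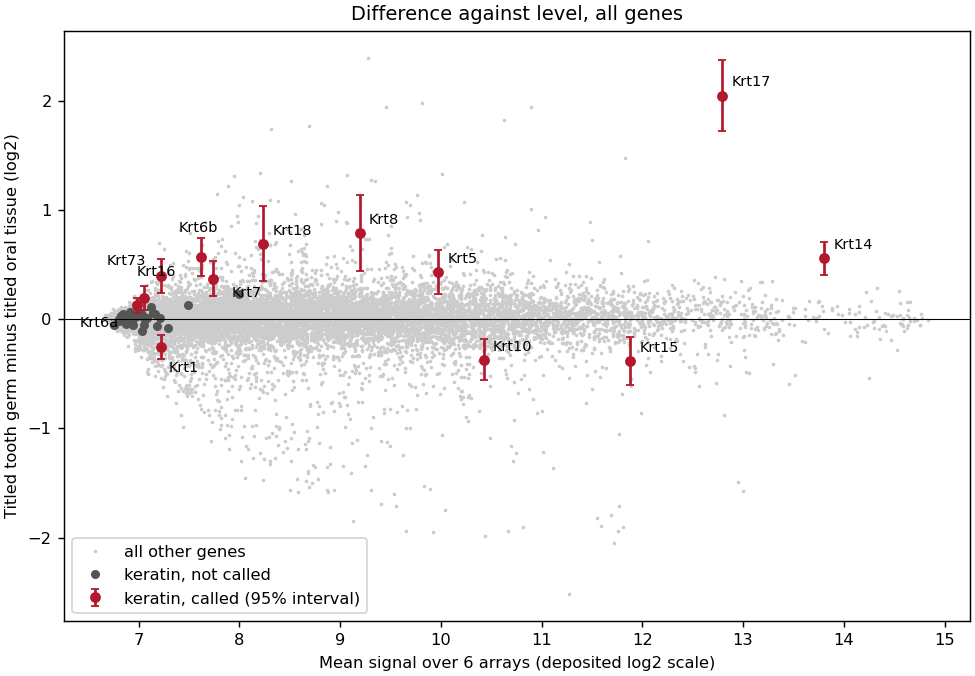
Difference between titled tooth germ and titled oral tissue (log2) against the mean signal over 6 arrays, for all 19057 genes in grey and the 49 keratins on top. Red points are the 13 called keratins with the 95% interval of the difference. Krt17 stands highest at 2.05, Krt15 and Krt10 lie below 0, and the uncalled keratins crowd at the dim end.

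Non-overlap of the groups was not rare on this array. It held for 18 of the 49 keratins and for 23.1% of all genes, and the 13 called keratins were all among the 18. The other 5 were Krt42, Krt86, Krt4, Krt2 and Krt71, named because their groups did not overlap.

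Unequal change between members was examined on each array by subtracting the signal of 1 keratin from that of another, for 6 pairs. With 3 arrays against 3 the smallest two-sided p of the exact permutation test is 0.10, so none could pass 0.05. Krt17 minus Krt14 was -2.20, -1.69 and -1.39 on the oral arrays and -0.28, -0.28 and -0.25 on the tooth germ arrays. Krt17 thus gained 1.49 on Krt14, also a type I gene, without overlap (exact p = 0.10, 0.12 adjusted over the 6 pairs). Against Krt5, the basal type II gene, Krt17 gained 1.61, and against Krt15 it gained 2.43.

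Krt15 minus Krt14 was -1.54, -1.34 and -1.48 on the oral arrays and -2.24, -2.57 and -2.39 on the tooth germ arrays. Krt15 lost 0.94 against Krt14, and the groups did not overlap, which fixes the same sign in each litter. These 4 shifts reached the smallest p the exact test allows, with an adjusted p of 0.12. So did the small change of Krt5 minus Krt14 (-0.12), so this p does not set the 4 apart. Litter 2 gave the largest loss of Krt15, at -1.22.

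Krt5 and Krt14 rose together, as did Krt8 and Krt18, and whether the rises within a partner set were equal is not shown. Krt5 minus Krt14 changed by -0.12, with litter values of -0.049, -0.22 and -0.10, and its groups did not overlap either (exact p = 0.10). Krt8 minus Krt18 changed by 0.098, with litter values of 0.090, 0.24 and -0.040, and its groups overlapped (exact p = 0.30). With the mean of all probes Krt8 minus Krt18 changed by -0.29, which takes in the dim second Krt8 probe.

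**Figure D4:**
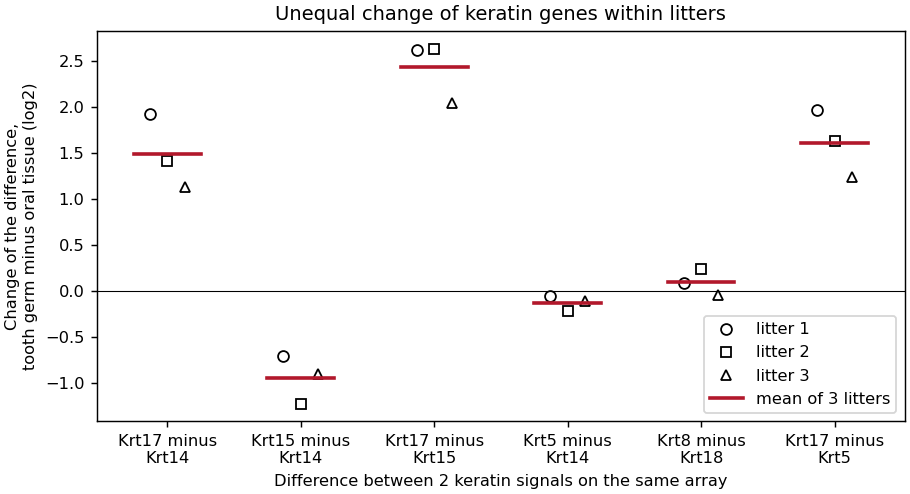
Change, from titled oral tissue to titled tooth germ, of the difference between 2 keratin signals on the same array (log2), for 6 gene pairs. Open markers are the 3 litters and red bars their mean. The pairs with Krt17 lie between 1.14 and 2.63, Krt15 minus Krt14 lies below -0.70, and Krt5 minus Krt14 and Krt8 minus Krt18 lie between -0.22 and 0.24.

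Genes whose products anchor keratin filaments rose with them in part. Of 13 measured desmosome and plakin genes 5 rose and none fell (2.39% and 3.42% of all genes), with a median of 0.26 (all genes 0.0026). They were Dst, which encodes the plakin that ties keratin to hemidesmosomes (0.68), the desmosomal cadherins Dsg2 (0.66) and Dsc3 (0.42), and the plakophilins Pkp1 (0.50) and Pkp3 (0.36). The Dst call was lost with the mean of its 12 probes (adjusted p = 0.551, limma). The Pkp1 call was lost in 5 of 18 alternatives, without oral tissue library 1 or 3, tooth germ library 2, litter 1 or litter 3 (adjusted p up to 0.146). With litter as a block Evpl (0.26) and Ppl (0.31), which encode plakins of the cell envelope, were called too, making 7. Plec, another plakin of keratin filaments, differed by 0.020 at a mean signal of 11.50. Of 6 hemidesmosome and basal adhesion genes 3 rose, led by the laminin chain Lamb3 at 1.07 (SE 0.095, adjusted p = 4.6e-05), with the integrins Itgb4 at 0.41 and Itga3 at 0.35. The Itgb4 call was lost in 7 of 18 alternatives (adjusted p up to 0.217), without any 1 library other than tooth germ library 1 and without litter 2 or 3. The Itga3 call was lost in 8 of 18 (up to 0.196), without any 1 library other than tooth germ library 3 and without any 1 litter. With litter as a block 5 rose, the others being Itga6 (0.31) and Cd151 (0.26).

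Transcription factors of stratified epithelium, which include regulators of keratin genes, had 5 of 13 members called, all higher (2.39% of all genes higher). The AP-2 factors Tfap2c (1.94) and Tfap2b (1.82) had the largest differences, followed by Trp63 (1.01), Grhl2 (0.43) and Zfp750 (0.40). The median of all 13 was 0.054, with 9 differences positive and 4 negative. Tfap2a, another AP-2 factor, differed by -0.013 and Grhl1 by -0.20, and neither was called. The Grhl2 call was lost without litter 3 (adjusted p = 0.0547, limma). Among 10 genes of simple epithelium identity 3 rose, namely the protease inhibitor Spint1 (0.69), the tight junction gene Cldn6 (0.66) and the splicing factor Esrp1 (0.45). The Cldn6 call was lost in 9 of 18 alternatives (adjusted p up to 0.119), among them without oral tissue library 1 or 2, tooth germ library 2 or 3, litter 1 or litter 2. The Esrp1 call was lost without litter 1 (adjusted p = 0.0557). With litter as a block Prss8, a membrane protease gene, was also called (0.22), making 4. The junction gene Cdh1 differed by 0.097 (adjusted p = 0.684). Of 11 genes of cornified envelope and terminal differentiation 1 was called, a share of 9.09% against 5.81% of all genes. It was Sfn, a 14-3-3 protein of keratinocytes, which rose by 0.59 (adjusted p = 0.0015, limma). With litter as a block Lor, the loricrin gene of the cornified envelope, was also called, at 0.35 (adjusted p = 0.0087, against 0.104 without the block).

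**Figure D5:**
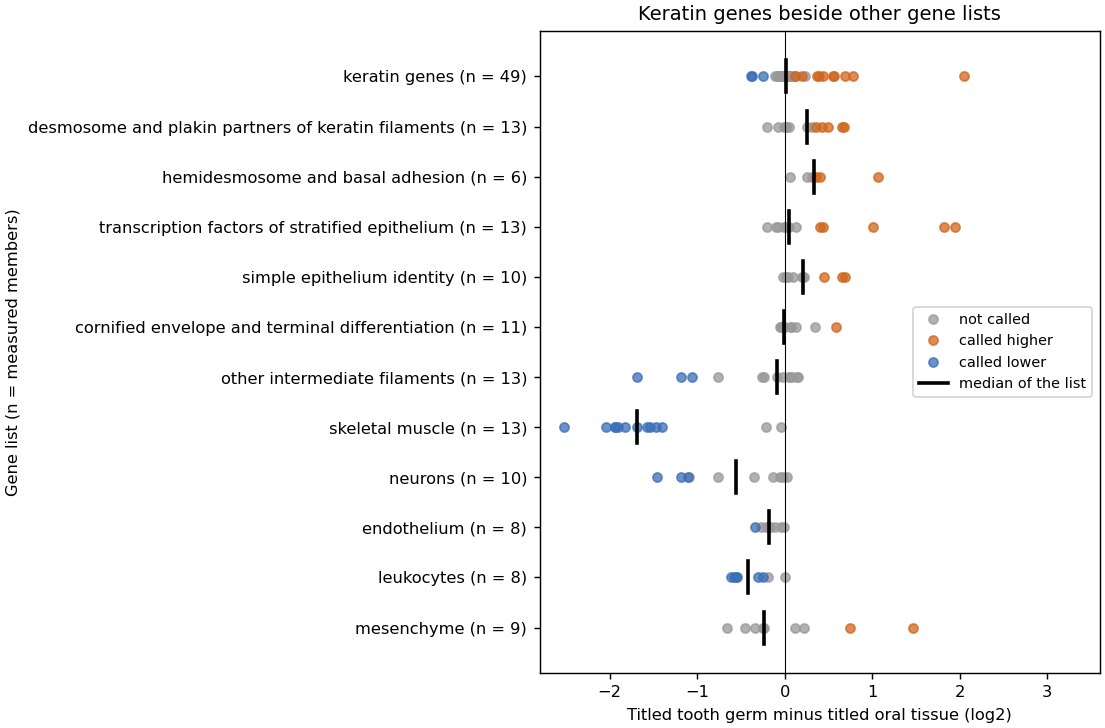
Difference between titled tooth germ and titled oral tissue (log2) for each measured member of the keratin family and of 11 other gene lists. Orange points were called higher, blue points called lower and grey points not called, and the black bar is the median of the list. Keratins spread to both sides of 0, calls in the 5 epithelial lists lie to the right, and the muscle list lies furthest to the left with a median of -1.69.

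Over the 5 epithelial lists together, 17 of 53 measured genes rose and 0 fell (limma), and the blocked fit called 23 of them higher and 0 lower. Over all genes 2.39% rose, and 3.86% in the blocked fit. At an unadjusted p under 0.05 (limma) 25 of the 53 list genes were higher and 3 lower. The share of all genes at that cutoff was not counted, so no excess can be read from these counts. In these lists 39 differences were positive and 14 negative, against 9866 and 9191 over all genes. In the main fit, the keratins of the basal and suprabasal layers that fell differed in sign from every called gene of these lists. The 14 negative differences of the lists were not called, and at an adjusted p under 0.01 (limma) 0 keratins were called lower. The count of epithelial list members that rose was 11 without oral tissue library 1, tooth germ library 2, litter 1 or litter 3. Over all genes 456 were called higher, and 284, 282, 195 and 258 in these settings in that order.

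Markers of other cells moved with the tissues as well. The mean signal of 13 skeletal muscle genes ranged from 10.47 to 11.08 over the oral arrays and from 9.16 to 9.41 over the tooth germ arrays, and 11 of them fell. Leukocyte genes ranged from 8.22 to 8.45 against 7.95 to 8.05 (6 of 8 fell), neuronal genes from 7.66 to 8.25 against 7.25 to 7.36 (3 of 10 fell, 6 with litter as a block) and endothelial genes from 8.72 to 8.91 against 8.61 to 8.66 (1 of 8 fell, 2 with litter as a block). The called share was 12.5% of endothelial genes and 5.81% of all genes. Of all genes 3.42% fell, and 5.02% with litter as a block. The mean of mesenchyme genes overlapped, from 10.56 to 10.72 against 10.62 to 10.81. In that list 2 of 9 rose, Msx1 by 1.47 and Prrx1 by 0.75, while 5 of 9 differences were negative and the median was -0.24. With litter as a block 3 mesenchyme genes fell (Col3a1, Col1a2 and Pdgfra). Whether these marker differences reflect tissue makeup, and whether tissue makeup enters the keratin differences, was not tested.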

How the data were processed

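Illumina bead arrays (1 colour, Cy3) of 6 mouse samples were analysed from the deposited table of log2-scale signals, to which the authors applied lumi 2.8.0, per the submitters' processing notes. Neither the background correction nor the exact transform (log2 or variance-stabilising) is stated in the labels, and either can compress differences of dim genes. The sorted columns differed by at most 0.000827, so the deposited log2 values were already quantile normalized. Of 45281 probes, 34885 had 1 symbol in the platform annotation, 18 several and 10378 none. The brightest probe of each of 19057 genes was kept, and 12 keratins had several probes. No gene was removed for low signal, and detection p-values were not used here.

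The comparison by title used lmFit and eBayes (trend on) of limma 3.58.1 under R 4.3.3, with 3 arrays on each side. The test was run on simulated data with independent noise on each array and no litter effect, so that check does not cover the pairing. Levels are log2 signals, and differences are tooth germ minus oral tissue with moderated standard errors. The labels call the replicates biological. Libraries of 1 number share a litter per the labels, and their deviations from the group means correlated at 0.413, 0.233 and 0.266 over 9528 genes, so the numbers were taken as pairs. The fit without litter was kept as the main one, and blocked counts or values are printed where they change a call. The number of arrays limits the precision.

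Members and gene lists were chosen with earlier results of these data known. Named genes were Krt17, Krt14, Krt5, Krt15, the keratins called, those with a mean above the median of all values and the 5 just below it, and up to 4 called members of each other list by size (up to 2 by p where none was called). Krt2, Krt9, Evpl, Ppl, Itga6, Cd151, Prss8, Lor, Col3a1, Col1a2, Pdgfra, Krt20, Krt71, Pkp3, Plec, Zfp750, Tfap2a, Grhl1, Cdh1, Vim, Prph, Lmna and Lmnb1 were named after their values were seen. RefSeq sequences and gene order are of GRCm38.p6.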

Additional observations from a re-analysis of the deposited data

How the results depend on the processing

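The test was run with litter as a fixed block (replicate block) or as a random effect, with quantile normalization run again, each array centred on its median, dim genes removed, the mean of all probes, no trend, robust shrinkage, array weights, a call at 0.01, and without each library or litter in turn. Krt14, Krt17 and Krt6b were the only keratins called in all 18 alternatives. The replicate block, a paired fit, changed 1 keratin call, that of Krt6a. Every alternative other than the replicate block and the random effect was fitted without litter, also those with a library or litter left out. Keratins called higher numbered 6 with no trend, 4 at 0.01 and between 5 and 9 with a library or litter left out. Those called lower numbered 0 at 0.01 and between 0 and 2 with a library or litter left out. Over all genes the replicate block called 736 higher, the call at 0.01 gave 218 higher and 383 lower, and leaving out libraries or litters gave 195 to 368 higher and 354 to 663 lower. Epithelial list members called higher numbered 11 at 0.01 and 11 to 16 with a library or litter left out, and 1 was called lower with no trend.

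With the mean of all probes the change of Krt8 minus Krt18 turned to -0.29 and that of Krt13 to -0.0044. With a litter left out, Krt8 minus Krt18 changed by 0.025 to 0.17. Signs of uncalled genes also turned when libraries or litters were left out, within -0.036 to 0.39 for Krt23, -0.052 to 0.045 for Krt13, -0.033 to 0.093 for Krt75, -0.067 to 0.063 for Krt222, -0.026 to 0.055 for Krt27, -0.013 to 0.057 for Krt82, -0.016 to 0.062 for Krt79, -0.026 to 0.047 for Krt26 and -0.011 to 0.12 for Krt76. The cause was not tested. Signals near the median of all values limit what can be said of 23 dim keratins.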

Other observations

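No intermediate filament gene measured outside the keratin family was called higher (limma, also 0 at an unadjusted p under 0.05). Of 13 measured genes 3 fell in titled tooth germ and 10 were not called, and with litter as a block 5 fell. Over all genes 3.42% fell, and 5.02% with litter as a block. Des, the muscle desmin gene, fell by 1.69 on the log2 scale, Nefm, a neurofilament gene, fell by 1.19 and Nes, the nestin gene of progenitor and muscle cells, fell by 1.06 (adjusted p = 4.4e-05, 4.3e-04 and 5.4e-05, limma). Vim, the vimentin gene of mesenchymal cells, differed by -0.26 (adjusted p = 0.150) and was called lower with litter as a block, as was Prph, the peripherin gene of neurons (-0.77). The nuclear lamin genes Lmna and Lmnb1 differed by 0.063 and 0.16 and were not called.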
